A study of Mus musculus with 4 samples.

Results

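Serpins are a superfamily of protease inhibitors and their non-inhibitory relatives. All genes whose symbol begins with Serpin were taken from an expression array study of the mouse mammary carcinoma line 4T1, which gave 54 genes of the 22180 tested. They fall into clades, named by the letter after Serpin: 20 genes in clade A, 25 in clade B, 2 each in clades F and I, and 1 each in clades C, D, E, G and H. Cells carrying a short hairpin RNA against Ldha (shLDHA) were compared with cells carrying a scrambled hairpin (scramble), with 2 arrays in each group. Ldha encodes the A subunit of lactate dehydrogenase, which turns pyruvate into lactate. Puromycin (10 µg/ml) had been used to select the shLDHA cells, which were kept as a mixed pool. Whether the scramble cells were selected as well is not stated in the labels, so selection and knockdown cannot be told apart. All cells had been cultured for 24 hours before RNA was taken. Nothing in the labels says that the 2 arrays of a group came from separate cultures, so the p-values reflect the spread of these 4 arrays alone, and that spread may be technical.

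An inhibitory serpin presents an exposed reactive centre loop as bait. The protease cuts the loop, stays bound to it, and is dragged across the folded serpin and distorted, so that each serpin molecule is used up with the protease it blocks. Clade A and clades C to G act mainly outside cells, in clotting, fibrinolysis, complement and inflammation, and many are made by the liver. Clade B serpins lack a classical signal peptide and mostly stay inside cells, where they guard against misplaced proteases. Serpinb5 (maspin) does not inhibit proteases in the usual way. It is made by mammary myoepithelial cells and is known as a tumour suppressor that is often lost in breast carcinoma.

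In these cells 1 serpin was higher in shLDHA, Serpinb5, and 1 was lower, Serpinb6b, both of clade B. The remaining 52 did not pass. The promoters of both genes are shown with that of Serpinb9, the clade B gene next to Serpinb6b, which did not pass. RefSeq promoter sequences of build GRCm38.p6 matched 47 of the 54 genes. The 250 bases before the annotated start were searched on both strands for an AP-1 element (TGANTCA), a hypoxia response core (ACGTG), a GC box (GGGCGG), a heat shock element (GAANNTTC) and a CRE core (TGACG). No motif overlapped another in these 3 windows, and capitals mark the matches.
Serpinb5 (chr1:106860925-106861174, strand +): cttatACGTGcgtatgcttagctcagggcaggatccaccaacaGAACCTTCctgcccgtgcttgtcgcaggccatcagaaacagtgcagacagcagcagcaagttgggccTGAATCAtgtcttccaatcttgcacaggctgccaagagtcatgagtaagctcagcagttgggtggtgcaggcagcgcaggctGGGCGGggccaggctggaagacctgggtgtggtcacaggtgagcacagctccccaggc
Serpinb6b (chr13:32965011-32965260, strand +): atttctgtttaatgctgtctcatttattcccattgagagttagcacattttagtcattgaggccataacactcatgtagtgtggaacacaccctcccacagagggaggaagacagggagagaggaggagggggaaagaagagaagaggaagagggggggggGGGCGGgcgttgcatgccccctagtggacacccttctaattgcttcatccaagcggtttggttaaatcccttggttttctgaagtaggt
Serpinb9 (chr13:33004291-33004540, strand +): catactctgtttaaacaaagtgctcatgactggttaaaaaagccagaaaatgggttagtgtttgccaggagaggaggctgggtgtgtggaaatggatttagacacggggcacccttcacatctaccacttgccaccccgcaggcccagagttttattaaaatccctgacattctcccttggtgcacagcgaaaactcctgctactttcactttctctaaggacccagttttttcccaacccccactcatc

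The Serpinb5 window held an ACGTG core 245 bases before the start, GAACCTTC at 207, TGAATCA at 140 and a GC box at 58. The Serpinb6b window held a GC box at 89, at the end of a run of G, and the Serpinb9 window held none of the 5 motifs. Over 32851 promoter windows of the same length, 6.75% held TGANTCA, 16.6% ACGTG, 32.7% GGGCGG, 6.69% GAANNTTC and 17.8% TGACG. Among the 55 windows of the tested serpin genes these shares were 20%, 9.09%, 10.9%, 3.64% and 14.5%, in the same order. Matches are a description of the letters only.

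The arrays were alike in scale, with medians of 3.87 to 3.90 over all 41345 probe sets. Across genes, which are not independent replicates, arrays of one group correlated at r = 0.997 and arrays of different groups at r = 0.993. Ldha itself, the target of the hairpin, was lower in shLDHA. It read 6.31 and 6.15 in shLDHA, against 6.69 and 6.96 in scramble, on the log2 scale of the deposited values. The difference was -0.59 (SE 0.12, limma adjusted p = 0.0390), and the call was lost without shLDHA replicate 1 or 2 and without scramble replicate 2. The epithelial label of the line was borne out by its markers, since Epcam, Cdh1, Krt8 and Krt18 read between 8.45 and 10.50 on every array. Krt14 of the same list read lower, between 3.88 and 4.86. All 8 mammary epithelial markers lay above the near-floor mark defined in the next paragraph, as means over the 4 arrays. Of these, 3 were higher and 1 was lower in shLDHA (4 of 8, against 11.9% of all genes above that mark). No marker passed among 7 of fibroblasts, 6 of leukocytes, 4 of endothelium, 5 of hepatocytes and 5 of mast cells and granulocytes. In the same order, the mean level of these 5 lists over the 4 arrays ran from 3.55 to 3.64, 2.97 to 3.03, 3.21 to 3.23, 3.04 to 3.15 and 2.88 to 2.91. Among these markers only Pdgfra, of the fibroblast list, lay above the near-floor mark. It read 6.38 and 6.61 in shLDHA, against 6.53 and 6.50 in scramble.

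Most serpin probe sets read near the floor of the array. As a mark for such signals, the level below which 95% of 1105 olfactory receptor genes lay was used, which was 4.19 as a mean over the 4 arrays. Of the 54 serpins, 49 lay below this mark. The 5 above it were Serpinb5, Serpinb6a, Serpinb6b and Serpinb9 of clade B and Serpinh1 of clade H. The probe sets of different genes are not calibrated against each other, so the mark says only where a change could be compressed. Array signals near the floor understate changes.

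**Figure D1:**
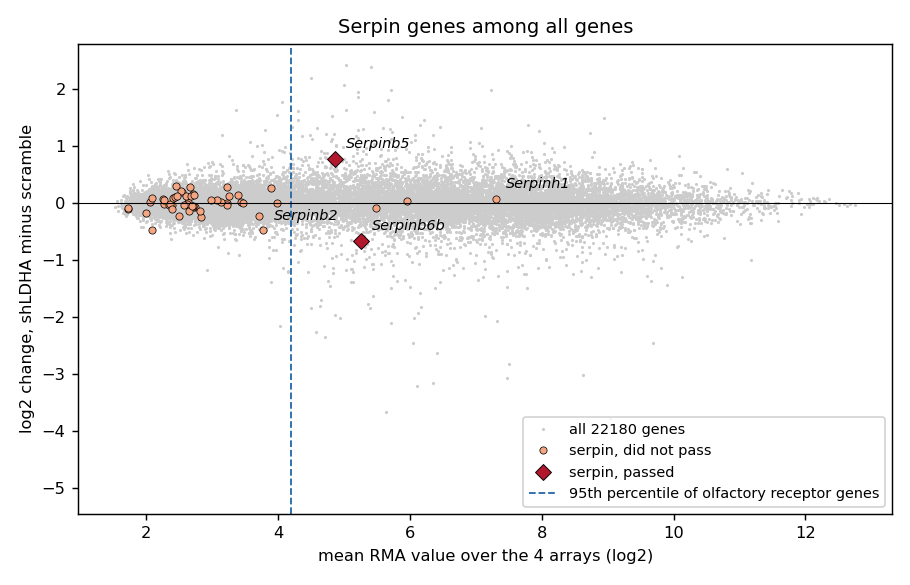
Each point is a gene, with its mean RMA value over the 4 arrays (log2) on the horizontal axis and the log2 change, shLDHA minus scramble, on the vertical axis. Grey points are all 22180 genes and larger symbols the 54 serpins; 49 serpins lie left of the dashed mark at 4.19, and the 2 that passed lie right of it.

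The question was how many serpins differed between shLDHA and scramble cells. By limma at a Benjamini-Hochberg adjusted p under 0.05 over all genes, 2 of 54 serpins passed, or 3.70%, against 6.36% of all genes. Of all genes, 3.37% were higher and 2.99% lower in shLDHA. Among genes below the olfactory receptor mark 1.18% passed, and 0 of the 49 serpins there did. Among genes above it 11.9% passed, and 2 of the 5 serpins there did. At an unadjusted p under 0.05, 7 of the 54 serpins passed, against 21.5% of all genes. The median log2 change of the serpins was 0.01, and that of all genes was 0.01. No serpin changed 2-fold, and 27 of the 54 differed by less than 0.1 on the log2 scale. The 2 arrays of shLDHA lay beyond the 2 of scramble for 18 serpins, or 33.3%, while this held for 50.3% of all genes. Of all 54 serpins, 12 lay apart on the higher side, against 26.2% of all genes, and 6 on the lower side, against 24.0%. Below the mark the shares were close, with no overlap for 32.7% of the 49 serpins and 35.6% of all genes there. An unadjusted p under 0.05 was reached by 5 of these 49 serpins and by 9.45% of all genes below the mark.

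**Figure D2:**
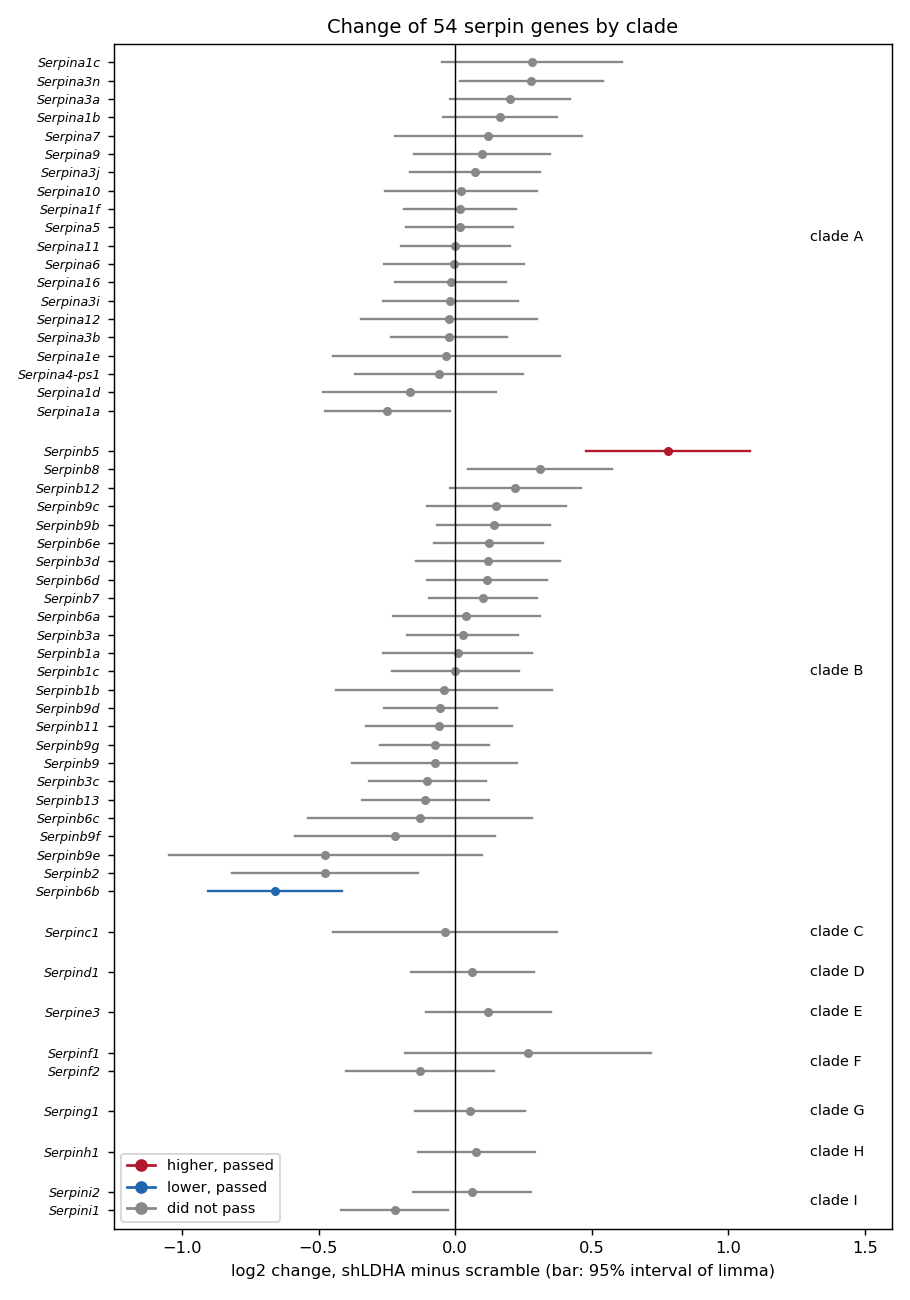
The log2 change, shLDHA minus scramble, is given for each of the 54 serpins, grouped by clade. Points are estimates and bars their 95% intervals from limma (2 arrays per group); Serpinb5 at 0.78 and Serpinb6b at -0.66 are the coloured genes that passed.

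Serpinb5 rose in the knockdown. It read 5.08 and 5.43 in shLDHA, against 4.47 and 4.48 in scramble. Both shLDHA arrays were above both scramble arrays, and they lay further apart from each other than the scramble arrays did. The means were 5.25 ± 0.25 in shLDHA and 4.47 ± 0.01 in scramble (SD, n = 2 each), a log2 change of 0.78 (SE 0.13, 95% interval 0.48 to 1.08), or 1.71-fold higher, with a limma adjusted p of 0.0197. The call held in 10 of 13 alternative settings. It ended without shLDHA replicate 2 (adjusted p = 0.0649), without scramble replicate 1 (0.0524) and when all 41345 probe sets were tested (0.124).

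Among the epithelial markers, Krt14, a keratin of basal and myoepithelial cells, rose as well. It read 4.54 and 4.86 in shLDHA, against 3.88 and 3.92 in scramble (log2 change 0.80, limma adjusted p = 0.0161). Both scramble values of Krt14 were below the olfactory receptor mark of 4.19, and both shLDHA values were above it. As for Serpinb5, the second shLDHA array was the highest of the 4. The luminal keratin gene Krt8 rose by 0.47 and the adhesion gene Epcam by 0.53, while the tight junction gene Cldn3 fell by 0.97 on the log2 scale. These 4 were named because they passed. The Krt14 call ended without shLDHA replicate 2, and those of Krt8 and Epcam ended without any 1 of the 4 arrays. The mean level of the 8 epithelial markers was 8.85 and 8.91 in shLDHA, against 8.73 and 8.75 in scramble, and its part in the Serpinb5 result was not tested. In bulk RNA, more cells of a type and more RNA per cell cannot be told apart.

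Serpinb6b fell in the knockdown. Its product has been described in the mouse as an inhibitor of granzyme A, a protease that cytotoxic lymphocytes release into target cells. It read 4.99 and 4.88 in shLDHA, against 5.69 and 5.49 in scramble, so both shLDHA arrays were below both scramble arrays. The means were 4.93 ± 0.08 in shLDHA and 5.59 ± 0.14 in scramble (SD, n = 2 each). The log2 change was -0.66 (SE 0.10, 95% interval -0.90 to -0.41), or 1.58-fold lower, with a limma adjusted p of 0.0175. The call held in 9 of 13 alternative settings and ended without shLDHA replicate 1 (adjusted p = 0.0664) or 2 (0.0949), without scramble replicate 1 (0.0650) and over all probe sets (0.115).

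The other genes of the Serpinb6 group did not pass. Serpinb6a, related to a human inhibitor of cathepsin G, read 5.90 and 6.04 in shLDHA, against 6.06 and 5.81 in scramble. The groups overlapped, and the log2 change of 0.04 had a 95% interval of -0.23 to 0.31. A further probe set lists Serpinb6a together with another gene and was left out, since its signal cannot be assigned to either. It read 4.25 and 4.13 in shLDHA, against 4.59 and 4.51 in scramble, so that both shLDHA arrays were below both scramble arrays (-0.36), unlike the probe set used. The difference between Serpinb6a and Serpinb6b was not tested. Serpinb6c, Serpinb6d and Serpinb6e lay below the olfactory receptor mark and changed by -0.13, 0.12 and 0.12. These genes are close paralogs. Whether their probe sets bind each other's transcripts was not tested.

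Serpinb9, an inhibitor of granzyme B, did not pass. It read 5.37 and 5.51 in shLDHA, against 5.68 and 5.36 in scramble. The 2 shLDHA arrays lay between the 2 scramble arrays, and the log2 change was -0.08 (95% interval -0.38 to 0.23). The 6 other genes of the Serpinb9 group read below the mark. Their changes ran from -0.47 for Serpinb9e to 0.15 for Serpinb9c, and none passed. Serpinb9e read 1.66 and 2.06 in shLDHA, against 2.68 and 1.98 in scramble, so 1 scramble array was high and the groups overlapped. Among probe sets with 1 gene symbol, Serpinb9b was the only serpin with more than 1, and its dimmer one differed by -0.01, against 0.14 for the one used.

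**Figure D3:**
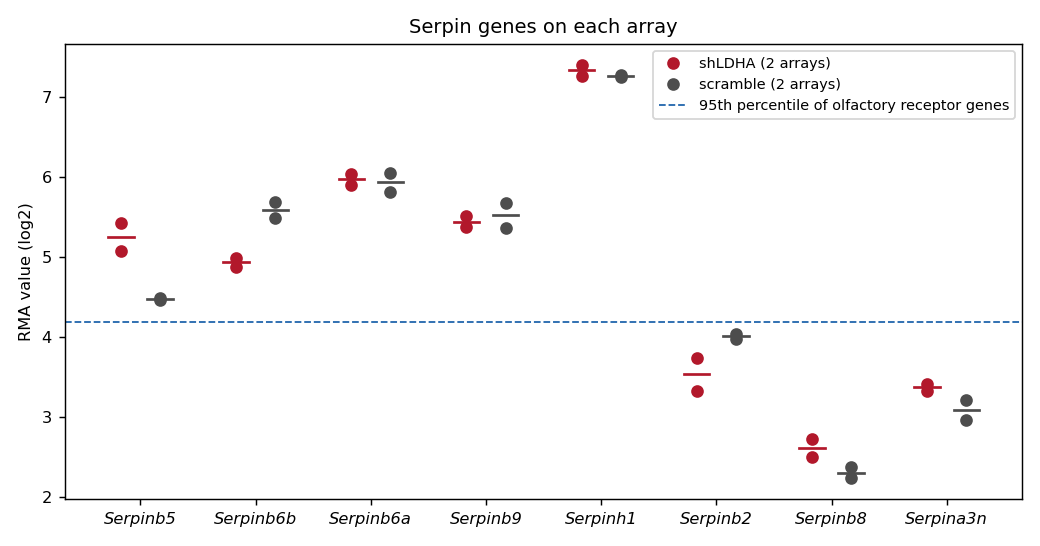
RMA values (log2, vertical axis) of 8 serpin genes are shown for each array, with shLDHA left of scramble. Points are arrays, short lines group means, and the dashed line is the olfactory receptor mark at 4.19. The groups are apart for Serpinb5, Serpinb6b, Serpinb2, Serpinb8 and Serpina3n, and overlap for Serpinb6a, Serpinb9 and Serpinh1. Of all genes 50.3% did not overlap.

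Serpinb2, whose product is the plasminogen activator inhibitor PAI-2, came next by p-value and did not pass. It read 3.32 and 3.74 in shLDHA, against 3.98 and 4.04 in scramble. Both shLDHA arrays were below both scramble arrays, but all 4 values were under the mark of 4.19. The log2 change was -0.48 (SE 0.14, 95% interval -0.82 to -0.14) and the limma adjusted p was 0.114. No setting of 12 brought it past the threshold, with adjusted p between 0.0526 and 0.286. A probe set that lists Serpinb2 together with another gene was left out, and it read 2.72 and 2.55 in shLDHA, against 2.40 and 2.53 in scramble. The Serpinb2 change was -0.69 without shLDHA replicate 2 and -0.27 without shLDHA replicate 1.

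Serpinb8, which can inhibit the convertase furin, read 2.73 and 2.50 in shLDHA, against 2.23 and 2.37 in scramble (log2 change 0.31, adjusted p = 0.167). Serpinb12 read 2.63 and 2.66 in shLDHA, against 2.32 and 2.53 in scramble (0.22, adjusted p = 0.270). For both genes the groups did not overlap, at values well below the mark. The Serpinb1 group, inhibitors of neutrophil elastase and related proteases, ran from -0.04 to 0.01. The 3 tested genes of the Serpinb3 group, related to the human squamous cell carcinoma antigens, ran from -0.10 to 0.12.

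Clade B genes lie mainly in 2 clusters, on chromosomes 1 and 13. Serpinb5 is the first serpin of its cluster, beside the endosomal sorting gene Vps4b, which read 9.51 and 9.52 in shLDHA, against 9.49 and 9.49 in scramble. Next but one is Kdsr, an enzyme gene of sphingolipid synthesis (log2 change 0.25, adjusted p = 0.147). On the other side Serpinb12 and Serpinb13 changed by 0.22 and -0.11. Serpinb6b lies between Serpinb1c (0.00) and Serpinb9 (-0.08). Thus no tested gene up to 2 places away from either serpin passed. Of these neighbours, Serpinb12, Serpinb13, Serpinb1a, Serpinb1c and Serpinb9b lay below the olfactory receptor mark, where 1.18% of all genes passed. Gene order was taken from the RefSeq table of GRCm38.p6 and counts tested genes only.

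**Figure D4:**
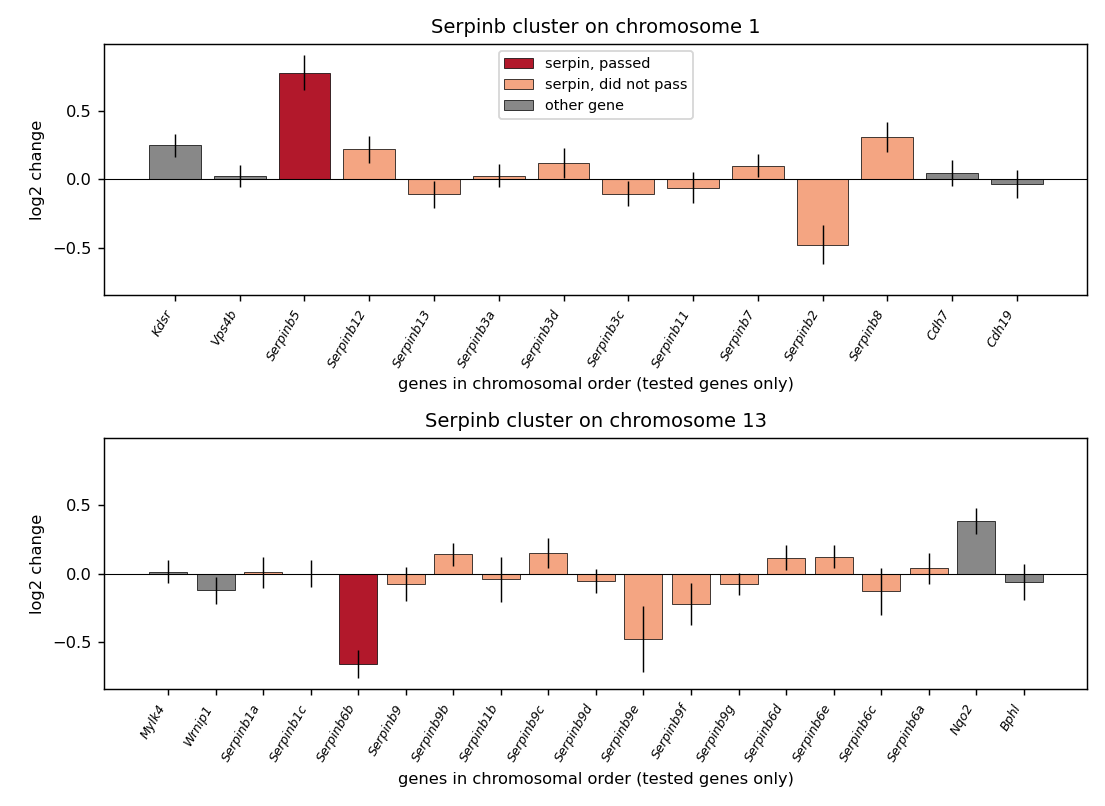
Bars give the log2 change, shLDHA minus scramble, of tested genes in chromosomal order along both clade B clusters, with the SE from limma as whiskers. Serpinb5 (0.78) and Serpinb6b (-0.66) are the dark bars. The serpins around them did not pass, and of these only Serpinb6a and Serpinb9 read above the olfactory receptor mark.

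In clade A, 0 of 20 genes passed by limma, and all 20 lay below the olfactory receptor mark, where 1.18% of all genes passed. At an unadjusted p under 0.05, 2 of the 20 passed, Serpina1a and Serpina3n, near the 9.45% of all genes below the mark. The 6 genes of the Serpina1 group encode forms of alpha-1-antitrypsin, the main plasma inhibitor of neutrophil elastase, or relatives of it. Serpina1a read 2.71 and 2.70 in shLDHA, against 3.04 and 2.86 in scramble (log2 change -0.25, adjusted p = 0.197), and Serpina1c read 2.96 and 2.63, against 2.40 and 2.63 (0.28, adjusted p = 0.309). Serpina1b read 2.86 and 2.74 in shLDHA, against 2.64 and 2.62 in scramble, and the groups did not overlap (0.16). Serpina1d read 1.97 and 1.84 in shLDHA, against 1.89 and 2.25 in scramble (-0.17). Serpina1e read 3.01 and 3.41 in shLDHA, against 3.05 and 3.43 in scramble (-0.03), and Serpina1f read 3.13 and 3.15, against 3.07 and 3.17 (0.02). The direction thus varied within the group.

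Serpina3n, an acute-phase relative of antichymotrypsin, read 3.32 and 3.41 in shLDHA, against 2.96 and 3.21 in scramble. Both shLDHA arrays were the higher ones, and the log2 change of 0.28 (95% interval 0.02 to 0.54) had an adjusted p of 0.206. Serpina3a read 2.66 and 2.62 in shLDHA, against 2.52 and 2.36 in scramble (0.20, adjusted p = 0.276). Serpina3b, Serpina3i and Serpina3j changed by -0.02, -0.02 and 0.07. The 9 genes of the clade outside both groups, among them the hormone carriers Serpina6 and Serpina7 and the protein C inhibitor Serpina5, ran from -0.06 to 0.12. The hepatocyte markers Alb and Apoa1 read between 2.85 and 3.42 on these arrays.

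The single-gene clades of plasma inhibitors did not pass either. Serpinc1, the gene of antithrombin, read 2.28 and 2.82 in shLDHA, against 2.60 and 2.58 in scramble. Serpind1, the gene of heparin cofactor II, read 3.11 and 3.09 in shLDHA, against 2.95 and 3.12 in scramble. Serping1, which encodes the C1 inhibitor of complement and of the contact system, averaged 3.01 ± 0.013 in shLDHA and 2.95 ± 0.055 in scramble (SD, n = 2 each). The changes were -0.04, 0.06 and 0.05, and for the first pair of genes the groups overlapped.

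Serpinf1, the gene of the anti-angiogenic protein PEDF, read 3.83 and 4.23 in shLDHA, against 4.00 and 3.53 in scramble. Its log2 change of 0.27 had a wide 95% interval, -0.18 to 0.72. It was 0.034 without scramble replicate 2, 0.066 without shLDHA replicate 2, 0.46 without shLDHA replicate 1 and 0.50 without scramble replicate 1. Serpinf2, the gene of alpha-2-antiplasmin, read 2.88 and 2.64 in shLDHA, against 2.81 and 2.96 in scramble (-0.13, 95% interval -0.40 to 0.14). Serpine3 changed by 0.12 and was the only clade E gene analysed here. In clade I, the neuroserpin gene Serpini1 read 2.40 and 2.37 in shLDHA, against 2.61 and 2.60 in scramble (-0.22, adjusted p = 0.183), with groups that did not overlap, and Serpini2 changed by 0.06.

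Serpinh1 is the only member of clade H and is not an inhibitor. Its product, Hsp47, is a collagen chaperone of the endoplasmic reticulum and is induced by heat shock. It read 7.27 and 7.41 in shLDHA, against 7.27 and 7.25 in scramble. The means were 7.34 ± 0.10 in shLDHA and 7.26 ± 0.02 in scramble (SD, n = 2 each). The log2 change of 0.08 had a 95% interval of -0.14 to 0.29 and a limma adjusted p of 0.699.

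Around Hsp47, 29 genes of collagens and their folding were tested, of which 3 were higher and 1 lower (13.8%, against 6.36% of all genes), with a median change of -0.04. Of the 29, 19 lay above the olfactory receptor mark, where 11.9% of all genes passed, and 10 below it, where 1.18% did. Pcolce, an enhancer of procollagen processing, read 7.18 and 7.07 in shLDHA, against 5.74 and 5.83 in scramble (log2 change 1.34, limma adjusted p = 0.00125). The prolyl hydroxylase gene P4ha1 read 8.93 and 8.87 in shLDHA, against 8.39 and 8.33 in scramble, and rose by 0.55. The anchoring fibril collagen gene Col7a1 rose by 0.40, while the basement membrane collagen gene Col4a2 fell by 0.39 on the log2 scale. Of 18 heat shock genes, 1 rose and 1 fell (11.1%, median -0.01). Of the 18, 16 lay above the olfactory receptor mark, so this share was near the 11.9% of all genes there. The heat-inducible Hsp70 gene Hspa1b rose by 0.68, and the small heat shock protein gene Hspb8 fell by 0.92. A second Hsp70 gene of the list, Hspa1a, lay below the mark, changed by -0.11 and did not pass. The co-chaperone gene Dnajb4 (-0.25) and the constitutive Hsc70 gene Hspa8 (0.21) did not pass. Without any 1 of the 4 arrays the calls of P4ha1, Col7a1 and Col4a2 ended. Those of Col7a1 and Col4a2 also ended with the replicate block (adjusted p = 0.0838 and 0.0897). The call of Hspa1b ended without either shLDHA array or scramble replicate 1. The call of Pcolce held in 13 of 13 settings.

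Lists of proteases that serpins act on, with cofactors, receptors and other partners of these proteases, held scattered calls. Of 15 genes of plasminogen activation, 1 was higher and 2 were lower (20.0%, against 6.36% of all genes, median -0.13). Of the 15, 10 lay above the olfactory receptor mark, where 11.9% of all genes passed, and 5 below it, where 1.18% did. Vldlr, a lipoprotein receptor that also takes up serpin-protease complexes, read 5.45 and 5.73 in shLDHA, against 4.02 and 4.07 in scramble (log2 change 1.54, limma adjusted p = 0.00157). Plat, the gene of tissue plasminogen activator, changed by -0.62 and Plaur, the urokinase receptor gene, by -0.57, and both passed. Their calls ended without either shLDHA array, and also without scramble replicate 2 for Plat and scramble replicate 1 for Plaur. That of Vldlr held in 13 of 13 settings. Plau, which encodes urokinase, the target of PAI-2, changed by -0.22 and did not pass, nor did the secreted protease gene Htra1 at 0.35.

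Of 16 clotting and contact genes, F8 rose by 0.46, and the protein S gene Pros1 (-0.57) and the tissue factor gene F3 (-0.50) fell. This was 18.8%, against 6.36% of all genes, with a median of -0.01. Of the 16, 2 lay above the olfactory receptor mark, where 11.9% of all genes passed, and 14 below it, where 1.18% did. F8 read 4.04 and 4.10 in shLDHA, against 3.56 and 3.66 in scramble. Pros1 read 3.34 and 3.25 in shLDHA, against 3.74 and 4.00 in scramble. All values of both genes were below the olfactory receptor mark of 4.19. F5, the factor V gene, changed by -0.28 and did not pass. The calls of F8, Pros1 and F3 ended without either shLDHA array and with the replicate block (adjusted p = 0.059, 0.0635 and 0.0751). Leaving out scramble replicate 1 ended those of F8 and F3, and scramble replicate 2 those of F8 and Pros1. In complement, Masp1, a protease of the lectin pathway, fell by 0.88 (limma adjusted p = 0.00390) and the other 11 genes did not pass. This was 8.33%, against 6.36% of all genes, with a median of -0.08. Only Masp1 among the complement genes lay above the mark. Among those that did not pass, C1s2 changed by 0.35, C1ra by -0.36 and C1rl by -0.17. Of 17 granule and apoptosis genes, Casp4, the inflammatory caspase-11 of the mouse, read 4.37 and 4.52 in shLDHA, against 5.97 and 5.71 in scramble (-1.39, adjusted p = 0.00245). It was the only one to pass (5.88%, against 6.36% of all genes, median 0.07), and 4 of the 17 lay above the mark. The pore-forming protein genes Prf1 and Gsdmd and the protease gene Prtn3 came next at -0.27, -0.22 and 0.17. Gzmb, whose product Serpinb9 blocks, read between 2.40 and 2.56 on all 4 arrays. Of 13 lysosomal proteases, 0 passed by limma, against 6.36% of all genes. Of these 13, 10 lay above the mark, where 11.9% of all genes passed. An unadjusted p under 0.05 was found for 4, against 21.5% of all genes. These 4 were Ctss at 0.35, Ctsb at -0.31, Ctsc at 0.26 and Lgmn at -0.25. Among all genes below the mark the share with an unadjusted p under 0.05 was 9.45%, so above the mark it exceeded 21.5%.

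**Figure D5:**
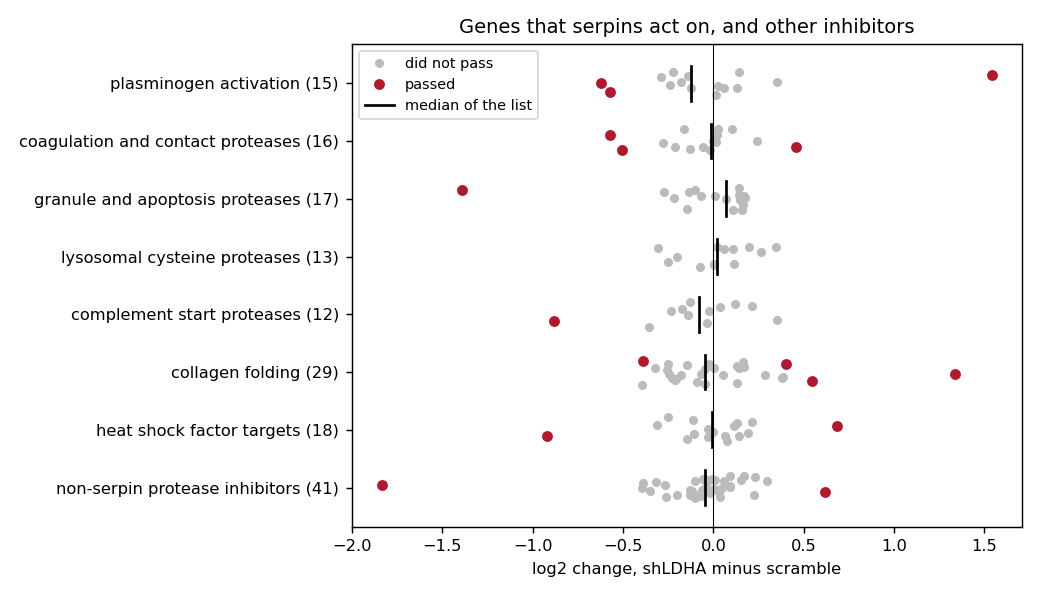
Each point is a tested gene of 1 of 8 lists, with the number tested in brackets; the horizontal axis is the log2 change, shLDHA minus scramble, and the vertical spread within a list is only for legibility. Red points passed limma at an adjusted p under 0.05, and every list median lies within 0.13 of 0.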

How the data were processed

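RNA of 2 shLDHA and 2 scramble samples had been labelled from 400 ng of total RNA for whole-transcript Affymetrix arrays, per the labels' protocols. The values deposited by the authors are on the log2 scale and run from 1.23 to 12.91. RMA and R 3.4.0 are named in the submitters' processing notes. Which annotation lay behind them is not stated in any source used here. A platform table gave 1 gene symbol for 23521 of 41345 probe sets, and several for 1814, while 16010 had none. Probe sets with 1 symbol were analysed, and for the 1082 genes with several the probe set with the highest mean was kept, which left 22180 genes and no filter on dim ones. Of 57 serpin probe sets, 2 carried several symbols and were left out. One lists Serpinb6a and the other Serpinb2 beside another gene. RefSeq (GRCm38.p6) lists 69 serpin symbols, and 15 were not analysed here.

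A single limma 3.58.1 model (lmFit, eBayes, R 4.3.3) set shLDHA against scramble over all 4 arrays with no covariate, two-sided, with Benjamini-Hochberg adjustment over all genes and a threshold of 0.05. The fit had 2 residual and 4.52 prior degrees of freedom. Unless stated, adjusted p is from this fit. The number of arrays limits the precision. Any serpin could be named. Array values, or for Serping1 group means, were given for those past the threshold, the 8 next by p and genes with a textbook role. From each list the 4 genes with the smallest p were named, with all calls where there were 6 or fewer, and array values for some of them. Serpinb6a and Serpinb9e, genes of subgroups, Gzmb, Plau, Timp1, Hspa1a and the markers were named after their values were seen. The members and the 8 lists (176 entries, 161 tested) were chosen with earlier results of these data known. The code was tested on simulated data. Alternatives were the replicate number as a block, filters at the median level and the 25th percentile, quantile normalization again, median centring, the mean of a gene's probe sets, all probe sets, eBayes with trend or robust, each array left out, and a threshold of 0.1. The first 13 of these settings are those counted in the text, and genes that a filter removed have fewer. The plots were made in matplotlib 3.10.9.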

Additional observations from a re-analysis of the deposited data

How the results depend on the processing

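The number of arrays and signals near the floor limit these results. The count of serpins that passed was 2 in the main analysis and 0 when all 41345 probe sets were tested, where 128 probe sets passed in place of 1410 genes. It ran from 0 to 2 with 1 array left out, and was 2 in the 8 other settings and at a threshold of 0.1. Over all genes the count was 838 with the replicate block, 2783 with the filter at the median level, 2806 with an eBayes trend, 2391 at a threshold of 0.1, and from 370 to 636 with 1 array left out. Deviations of same-numbered arrays correlated at r = -0.03 over genes, so no shared deviation was seen. This cannot tell whether these arrays had been handled as pairs. With the block both serpins still passed. Ldha lost its call with the block and over all probe sets (log2 change -0.59 in each, adjusted p = 0.0734 and 0.168), and its change ran from -0.73 to -0.45 with 1 array left out. Of 22 serpins followed through the settings, 7 changed direction, each only with 1 array left out and none of them past the threshold. Their ranges then were -0.34 to 0.010 for Serpina1d, -0.23 to 0.17 for Serpina1e, -0.034 to 0.068 for Serpina1f, -0.23 to 0.084 for Serpinb9, -0.31 to 0.23 for Serpinc1, -0.025 to 0.15 for Serpind1 and -0.082 to 0.16 for Serpinb6a. Over the 13 settings the calls ran from 1 to 5 in plasminogen activation (3 in the main analysis), 0 to 3 in clotting (3), 0 to 3 in lysosomal proteases (0) and 0 to 2 in complement (1). They ran from 0 to 1 in granule and apoptosis genes (1), 1 to 7 in collagen folding (4), 0 to 3 in heat shock (2) and 1 to 3 in other inhibitors (2). The causes were not tested.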

Other observations

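Protease inhibitors outside the serpin family held the larger single change. Of 41 tested, 1 was higher and 1 was lower in shLDHA (4.88%, against 6.36% of all genes), with a median log2 change of -0.05. Of the 41, 12 lay above the olfactory receptor mark, where 11.9% of all genes passed, and 29 below it, where 1.18% did. Slpi, the secretory leukocyte protease inhibitor, which blocks neutrophil elastase as alpha-1-antitrypsin does, read 4.51 and 4.43 in shLDHA, against 6.36 and 6.25 in scramble. It was 3.56-fold lower (log2 change -1.83, SE 0.09, limma adjusted p = 0.000375) and passed in 13 of 13 alternative settings. Tfpi, an inhibitor of the tissue factor pathway, read 3.98 and 3.79 in shLDHA, against 3.34 and 3.19 in scramble, and rose by 0.62 (adjusted p = 0.0231), in 8 of 12 settings. All 4 values lay below the olfactory receptor mark of 4.19, where 1.18% of all genes passed. The call of Tfpi ended without either shLDHA array and without scramble replicate 2. Stfa2, of the stefin family of cysteine protease inhibitors, changed by -0.40 and Wfdc2, a relative of Slpi, by -0.32, and neither passed (adjusted p = 0.0606 and 0.0850). The metalloproteinase inhibitor gene Timp1 changed by -0.26 and did not pass.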
